A study of Rattus norvegicus with 42 samples.

Results

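The genes described here are those whose transcripts were high in Neat1 -/- GH4C1 cells from ZT10 to ZT22 and lower at ZT34. They were chosen by the knockout libraries of those 5 times: a member had, at each of ZT10, ZT14, ZT18 and ZT22, a mean of the 3 replicates of at least 1.8 times its ZT34 mean, and a ZT22 mean of at least 5 CPM (counts per 1000000 counts of the library). This gave 141 members of the 13776 genes in both count tables, and of the 10949 genes that reached 5 CPM in the knockout at ZT22. A further 39 genes passed the ratios but not the level. The tables list genes by Ensembl identifier and pair none with a symbol, so 4 members are identified below and the others are described by counts, ranges and levels. What the 141 genes encode, the level of Neat1 itself and the markers of the cell line were not analysed here.

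GH4C1 is a rat pituitary cell line of the somatolactotroph type, which makes growth hormone and prolactin. Neat1 is a long noncoding RNA that serves as the scaffold of paraspeckles, nuclear bodies that hold RNA-binding proteins and can retain certain transcripts in the nucleus. Replacing the medium of a culture is a common way to bring its cells into step, after which clock-driven and growth-driven transcripts can change over the following day.

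RNA sequencing was done on GH4C1 cells in 2 groups: wild type (WT), listed as having no treatment, and Neat1 -/- (knockout, KO), in which the gene was deleted with CRISPR-Cas9. Both groups were put into fresh medium and harvested every 4 h, at the 7 times from ZT10 to ZT34, with 3 replicates per time and 42 libraries in all. The labels say neither whether the knockout cells are 1 clone or several nor whether replicates are separate cultures, so p-values measure the spread between these samples and a difference between clones cannot be told apart from the deletion. RNA came from whole cultures, in which fewer cells of a type and less RNA per cell cannot be told apart.

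In units of 1000000, total counts were 34.5 to 68.8 per WT library and 45.9 to 60.5 per KO library. A pair of genes that together took 17.6 to 21.2% of the counts in KO and 0.0308 to 0.335% in WT was left out of every CPM total. Among the libraries, 2 stood apart from their replicates. WT ZT34 replicate 1 was left out of the WT values and of the tests. It lay above both other WT ZT34 replicates in 77 members (54.6%), against 51.3% of all genes, and below both in 59 (41.8%), against 42.1% of all genes. It was over 2 times their mean in 29 members (20.6%), against 18.2% of all genes, and under 1/2 of it in 4 (2.84%), against 6.19%. The share under 1/2 was thus lower than that of all genes, and the other 3 shares were near it. These shares pool members that differed. Of the 81 members higher in KO than in WT at ZT26, 60 were above both replicates, and of the 37 lower in KO, 30 were below both. The same counts were not made for all genes of these classes, so they are not read as a trait of the members. KO ZT30 replicate 1 was kept. The tests of all members that involve ZT30 are given with and without it, and every other value at ZT30 includes it unless it is given by library.

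Together the 141 members made up 2.48 ± 0.0713% (SD, n = 12) of the KO counts at ZT10 to ZT22 and 1.04 ± 0.00286% (SD, n = 3) at ZT34. In WT the same genes made up 2.03 ± 0.0911% (SD, n = 12) and 1.82 ± 0.0346% (SD, n = 2) of the counts. The median member was at 72.3 CPM in KO at ZT22 (interquartile range 23.3 to 155.9, full range 5.07 to 3568) and at 30 CPM at ZT34 (interquartile range 10.3 to 77.2). The median of all genes at or above 5 CPM in KO at ZT22 was 41.3 CPM, so the median member lay above the middle of the expressed genes. These CPM values are not divided by transcript length, and levels of different genes are compared only in this sense.

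The KO mean of ZT10 to ZT22 was 2.22 times the ZT34 mean for the median member (interquartile range 2.03 to 2.59, full range 1.84 to 8.61). The ratio was at least 3 for 25 members, between 2 and 3 for 85 and under 2 for 31. This fall defines the members and is given as a description without a test. At the edge of the rule, the smallest of the 4 ratios was 1.8009, 1.8048 and 1.8078 for the 3 members nearest to the threshold and 1.7936, 1.7927 and 1.789 for the 3 genes just outside it. In WT the same ratio had a median of 1.09 (interquartile range 0.93 to 1.24, full range 0.37 to 2.65). It reached 1.8 in 6 members and 1.5 in 11, and none of the members met all 4 ratios in WT; of the 10949 genes at or above 5 CPM, 1 did.

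**Figure D1:**
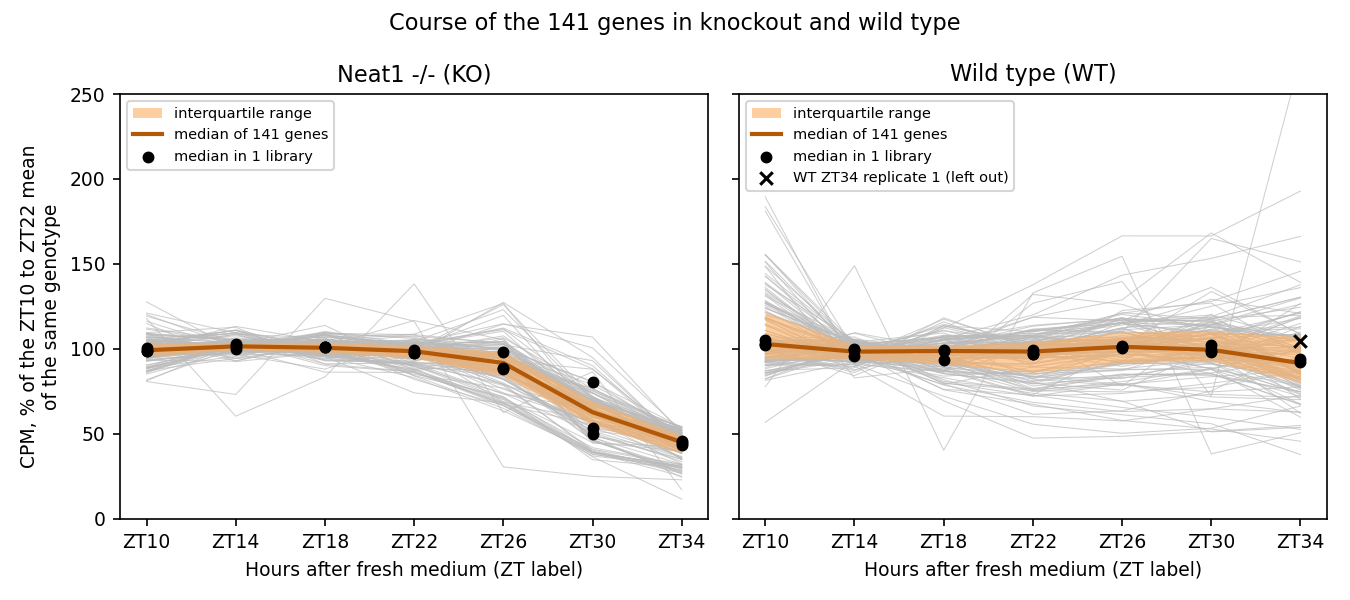
Level of the 141 members over time in WT and KO, as a percent of each gene's mean over ZT10 to ZT22 of the same genotype (y axis) against hours on the ZT scale (x axis); grey lines are genes, the band is the interquartile range, dots are the medians of single libraries and the cross is WT ZT34 replicate 1, which is not in the WT means. The KO median moves from 91.7% at ZT26 to 62.8% at ZT30 and 45.1% at ZT34, with KO ZT30 replicate 1 above the other replicates, while the WT median lies between 91.7% and 102.9%; 1 member has a WT mean above the top of the axis.

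For the median member most of the fall took place after ZT26. As a percent of each gene's own KO mean over ZT10 to ZT22, the median member was at 99.2% at ZT10, 101.5% at ZT14, 100.7% at ZT18 and 98.6% at ZT22. It was then at 91.7% at ZT26, 62.8% at ZT30 and 45.1% at ZT34. The number of members below 75% of that mean was 21 at ZT26, 125 at ZT30 and 141 at ZT34, the last of which the rule fixes. The rule also favours the count at ZT30, which lies between ZT22 and ZT34, and all genes were not counted in this way. Of the whole drop from the early mean to ZT34, the median member had completed 14.8% at ZT26 (interquartile range 2.9 to 28.5) and 69.4% at ZT30 (interquartile range 58.6 to 78.3). The median over all genes stayed between 98.2% and 102.4% in every KO library after ZT22. In WT the median member was at 102.9, 98.4, 98.8, 98.4, 101.2, 99.5 and 91.7% from ZT10 to ZT34, on the same scale of its own early mean.

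Step by step, the KO mean was lower than at the time before in 46 members at ZT14, 76 at ZT18, 103 at ZT22, 111 at ZT26, 140 at ZT30 and 141 at ZT34. In WT the corresponding numbers were 84, 81, 83, 37, 65 and 88. The rule favours lower KO steps after ZT22, and shares of all genes were not computed for these counts of means. In the edgeR fit, the log2 change from ZT26 to ZT30 was below 0 in 53.4% of all genes in KO and 53.2% in WT. The step from ZT26 to ZT30 left the median member at 68.2% of its previous level in KO and at 101.0% in WT. The step from ZT30 to ZT34 left it at 71.1% in KO and at 92.7% in WT. All 3 KO libraries of ZT34 lay below all 12 KO libraries of ZT10 to ZT22 in 138 members (97.9%), against 19.2% of all genes, a count that follows from the rule.

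The 3 KO libraries of ZT30 differed from each other. The median member was at 80.4% of its early mean in replicate 1, at 50.0% in replicate 2 and at 53.6% in replicate 3. At ZT26 the same medians were 89.0, 98.4 and 88.2%, and at ZT34 they were 45.8, 43.2 and 44.8%, so neither neighbouring time showed a gap of that size. The coefficient of variation over the 3 replicates had a median over the members of 28.4% in KO at ZT30, and of 3.3 to 7.0% at the other KO times. It was over 25% in 88 members at that time. The same spread was not computed for all genes, so it is not read as particular to the members. Replicate 1 lay above both other ZT30 replicates in 137 members (97.2%), against 36.2% of all genes. In 89 members (63.1%, against 8.55% of all genes) it lay above the other ZT30 replicates and below all 3 ZT26 libraries. Replicate 1 by itself lay below the ZT26 libraries in 90 members, against 25.7% of all genes. What set this library apart was not tested.

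The KO libraries of ZT26 and ZT30 did not enter the rule, but they lie between ZT22 and ZT34, which the rule sets apart. A fall spread over that interval lowers ZT30 against ZT26, so the rule favours members with a lower step. The shares of all genes below are read with that limit. The change between the 2 times was tested with edgeR's quasi-likelihood test over all 13776 genes with Benjamini-Hochberg adjustment. At ZT30, 129 of the 141 members were lower than at ZT26 at an adjusted p under 0.05 (91.5%), against 14.1% of all genes. None was higher, against 11.1% of all genes, and none was higher at an unadjusted p under 0.05 or by DESeq2. The median log2 change of the members was -0.59 (interquartile range -0.73 to -0.48), and that of all genes was -0.016. The change was below 0 in 140 members. All 3 ZT30 libraries lay below all 3 ZT26 libraries in 90 members (63.8%), against 12% of all genes, and replicates 2 and 3 alone did so in 135 (95.7%), against 24.0% of all genes.

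These calls use a spread shared across the 14 groups of genotype and time. Without KO ZT30 replicate 1 the count was 135, against 2675 of all 13776 genes, and the median log2 change was -0.88, against -0.021 for all genes. Without KO replicate 2 the count was 73, against 405 of all genes. In a fit of the 6 KO libraries of ZT26 and ZT30 alone it was 0, with 108 members lower at an unadjusted p under 0.05, and of all 13776 genes 0 passed as lower and 1, not a member, as higher in that fit.

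In WT the same step was tested in the same way. The edgeR test called none of the 141 lower and none higher at ZT30 than at ZT26, with 4 lower and 6 higher at an unadjusted p under 0.05. DESeq2 called none lower and 1 higher. Of all genes, edgeR called 0.029% lower and 0.00726% higher. The median log2 change of the members in WT was 0.02. The difference between the genotypes in this step was tested as an interaction in the same edgeR fit. The rule favours a lower KO step here too. At an adjusted p under 0.05 the step was lower in KO than in WT in 98 members (69.5%), against 7.73% of all genes, and it was higher in none, against 6.97% of all genes. None was higher at an unadjusted p under 0.05 or by DESeq2 either. The median interaction was -0.60 on the log2 scale, and it was below 0 in 137 members. The count was 131 without KO ZT30 replicate 1, with a median interaction of -0.87, against -0.011 for all genes. It was 35 without KO replicate 2, 53 without KO replicate 3 and 31 when only the 12 libraries of the groups compared were fitted. The calls of all genes in these fits are not given here, so the counts do not show how the share of all genes moved.

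**Figure D2:**
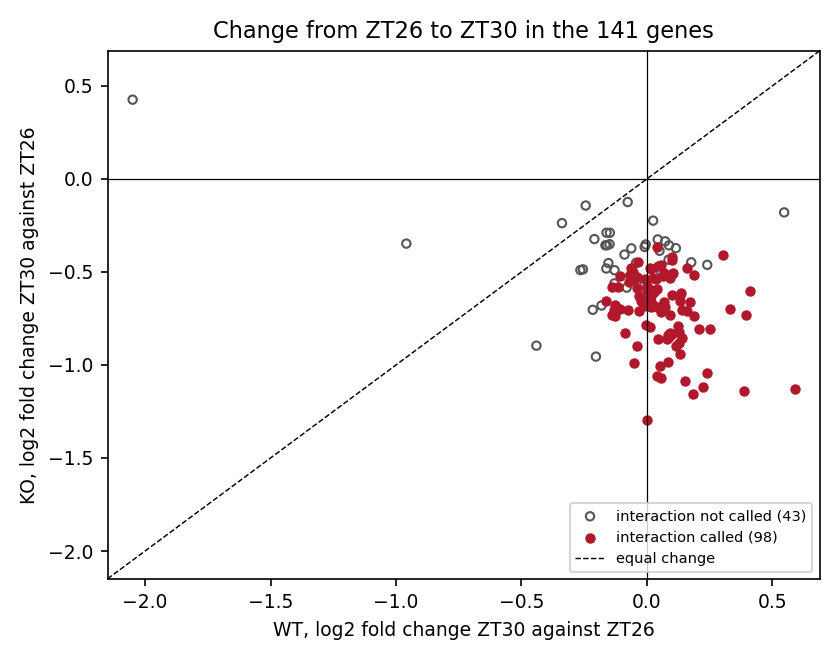
Log2 fold change from ZT26 to ZT30 in KO (y axis) against that in WT (x axis) for the 141 members, from the edgeR fit; filled points are the 98 members whose change differed between genotypes at an adjusted p under 0.05 and open points the other 43. The points lie around 0 on the WT axis and, for 140 of 141 members, below 0 on the KO axis.

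The 12 members that were not called lower in KO at ZT30 had a median log2 change of -0.26 from ZT26, and 11 of them were below 0. Their median was at 87.3% of their early mean at ZT30 and 46.4% at ZT34, where the median of all members was 45.1%. Of these, 3 were under 10 CPM at ZT22. The 1 member with a positive change was scattered between replicates. It ranged from 0.33 to 8.92 CPM over the KO libraries before ZT34 and was 0.615, 0.633 and 0.638 CPM in the libraries of ZT34. Its membership thus rests on a few high libraries among low ones at each early time.

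The member with the steepest fall was ENSRNOG00000012772, whose early KO mean was 8.61 times its ZT34 mean and whose smallest ratio was 6.39. In KO it stood at 228, 235 and 229 CPM at ZT10, at 205, 207 and 212 at ZT14, at 177, 184 and 183 at ZT18 and at 141, 141 and 141 at ZT22. It was then at 123, 137 and 129 CPM at ZT26, at 118, 35.9 and 55.2 at ZT30 and at 19.5, 21.4 and 25.4 at ZT34, each in the order of replicates 1, 2 and 3. Its KO mean was lower at each time than at the time before, and at ZT30 replicate 1 was close to the ZT26 libraries while the others were well below them.

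In WT, ENSRNOG00000012772 was at 95.3, 95.2 and 93.4 CPM at ZT10, at 68.8, 74.2 and 73.7 at ZT14, at 58.9, 56.1 and 51.6 at ZT18 and at 50.3, 50.7 and 56.1 at ZT22. It was at 55.6, 56.9 and 60.5 CPM at ZT26, at 62.7, 62.4 and 64.1 at ZT30 and at 50.9 and 49.6 at ZT34. The WT values were highest at ZT10 and lay between 49.6 and 64.1 CPM from ZT18 on, and every KO library up to ZT26 lay above every WT library. With edgeR's test and Benjamini-Hochberg adjustment, the KO change from ZT26 to ZT30 was -0.94 (SE 0.19, adjusted p = 0.000356) on the log2 scale, and its difference from WT was -1.07 (SE 0.27, adjusted p = 0.00632). The difference was not called without WT replicate 2 (adjusted p = 0.0552), KO replicate 2 (0.0829) or KO replicate 3 (0.0816). KO exceeded WT by 1.17 (SE 0.19, adjusted p = 1.08e-06) at ZT26. At ZT30 the KO difference from WT was 0.10 (SE 0.19, adjusted p = 0.624), and without KO ZT30 replicate 1 it was -0.53 (adjusted p = 1.21e-05).

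The most abundant member was ENSRNOG00000034066, whose early KO mean was 3.25 times its ZT34 mean. In KO it was at 4122, 4211 and 4181 CPM at ZT10, at 4075, 4379 and 4594 at ZT14, at 4089, 3986 and 4120 at ZT18 and at 3529, 3567 and 3608 at ZT22. It was at 2571, 3136 and 2636 CPM at ZT26, at 2320, 1172 and 1286 at ZT30 and at 1193, 1316 and 1218 at ZT34. Replicates 2 and 3 of ZT30 had thus reached the level of ZT34, and replicate 1 had not.

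In WT, ENSRNOG00000034066 was at 4725, 4600 and 4714 CPM at ZT10, at 4726, 4770 and 4791 at ZT14, at 4648, 4497 and 4914 at ZT18 and at 4742, 4721 and 4737 at ZT22. It was at 4795, 4656 and 4830 CPM at ZT26, at 4831, 5073 and 5189 at ZT30 and at 3802 and 3502 at ZT34. The WT values up to ZT30 lay between 4497 and 5189 CPM, and both libraries of ZT34 were below them. In edgeR's test the KO change from ZT26 to ZT30 was -0.84 (SE 0.13, adjusted p = 1.10e-05) and its difference from WT was -0.92 (SE 0.18, adjusted p = 0.000849). KO differed from WT by -0.77 (SE 0.13, adjusted p = 1.44e-06) at ZT26 and by -1.70 (SE 0.13, adjusted p = 6.49e-14) at ZT30. In WT, ZT34 against ZT10 to ZT22 gave -0.34 (SE 0.12, adjusted p = 0.0319), which did not pass without WT replicate 2 (adjusted p = 0.113) or replicate 3 (adjusted p = 0.363), nor without WT replicate 1 at every time (adjusted p = 0.0564).

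Several members moved in close proportion to ENSRNOG00000034066. Over the 21 KO libraries, the log2 ratio to this gene (CPM plus 0.1) had an SD under 0.1 in 6 of the other 140 members and under 0.2 in 15. None of the 13633 genes that are not members was under 0.2. The rule favours such genes, since all members fall in KO. The 6 closest had SDs of 0.041, 0.052, 0.062, 0.069, 0.071 and 0.086, while the log2 level of ENSRNOG00000034066 itself had an SD of 0.726 over the same libraries. Their levels were 8.61, 4.36, 2.31, 1.89, 3.97 and 13.4% of the level of ENSRNOG00000034066 in KO and 7.07, 3.45, 1.8, 1.81, 4.28 and 15.8% in WT. Whether these are copies or neighbours that share reads was not tested, and if they do share reads their separate values are uncertain.

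In the WT libraries, which the rule did not use, the course of the members was mixed. In WT, 78 of the 141 members (55.3%) changed over the 7 times in edgeR's test with Benjamini-Hochberg adjustment, against 44.1% of all genes, and 46 did without WT replicate 2. All genes here are the 13776, of which 10949 reached the 5 CPM in KO at ZT22 that every member reached. Levels therefore differ between the 2 sets, and with them the ease of a call. This limit holds for every share of all genes called in a test. At ZT34 against ZT10 to ZT22, 35 members (24.8%) were lower, against 14.5% of all genes, and 19 (13.5%) were higher, against 14.8% of all genes. The other 87 were not called. The median log2 change was -0.08 (interquartile range -0.28 to 0.14) for the members and 0.009 for all genes. Of the 35 that were lower, with changes from -1.31 to -0.19 and a median of -0.38, 8 had fallen by at least 1.5-fold. Of the 19 that were higher, with changes from 0.13 to 1.0 and a median of 0.41, 3 had risen by at least 1.5-fold. Fits without WT replicate 2 or without WT replicate 3 left 1 library at WT ZT34. Both called fewer members lower and fewer higher, and also fewer of all genes in each direction. With WT ZT34 replicate 1 put back, 39 members were lower and 38 higher, against 2255 and 3686 of the 13776 genes. Of these members, 23 and 12 were among the 35 and the 19.

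Single libraries showed the following without a model. The 2 WT libraries of ZT34 lay below all 12 WT libraries of ZT10 to ZT22 in 34 members (24.1%), against 11.4% of all genes, and above all of them in 13 (9.22%), against 7.39% of all genes. A difference between the early times also set part of the members apart in WT. The WT mean at ZT10 was at least 1.25 times the mean of ZT14, ZT18 and ZT22 in 42 members (29.8%), against 3.68% of the 10949 genes at or above 5 CPM. These 42 had a median ratio of 1.48 in WT, with a highest value of 2.7, and their median level at ZT10 in WT was 21.5 CPM. The same 42 genes had a median ratio of 1.01 in KO (range 0.77 to 1.41). No test was run on this count.

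ENSRNOG00000019504 and ENSRNOG00000009946 were among the 19 members that rose in WT while they fell in KO. They were picked as the 2 largest changes among those 19 in the WT test of ZT34. The values of that test for them are therefore a description. In WT, ENSRNOG00000019504 was at 0.971, 0.799 and 0.741 CPM at ZT10, at 1.71, 2.03 and 2.35 at ZT22, at 2.98, 2.29 and 2.09 at ZT26, at 2.63, 2.29 and 2.43 at ZT30 and at 1.91 and 3.77 at ZT34. In KO it was at 15.2, 14.9 and 13.98 CPM at ZT10, at 13.3, 11.7 and 12.5 at ZT22, at 13.7, 14.9 and 14.4 at ZT26, at 9.47, 3.94 and 4.65 at ZT30 and at 5.86, 6.0 and 5.37 at ZT34. The ratio of the KO mean to the WT mean went from 17.54 at ZT10 to 6.18 at ZT22 and 2.02 at ZT34. Apart from WT ZT34 replicate 1, every KO library lay above every WT library, so the genotypes came closer without crossing.

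In edgeR's test the change of ENSRNOG00000019504 in WT at ZT34 was 1.0 (SE 0.20, adjusted p = 0.000254), but without WT replicate 3 it was 0.47 (adjusted p = 0.204). The KO change from ZT26 to ZT30 was -1.29 (SE 0.20, adjusted p = 1.48e-05), with a difference from WT of -1.29 (SE 0.29, adjusted p = 0.00341). That difference did not pass without KO replicate 2 (adjusted p = 0.0835) or without KO replicate 3 (adjusted p = 0.0565).

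ENSRNOG00000009946, another abundant member, had a higher WT mean at each time than at the time before. Its WT values were 148, 158 and 144 CPM at ZT10, 159, 179 and 172 at ZT14, 201, 205 and 179 at ZT18, 226, 219 and 216 at ZT22, 259, 267 and 264 at ZT26, 300, 271 and 275 at ZT30 and 276 and 336 at ZT34. Its KO values were 640, 586 and 598 CPM at ZT10, 688, 744 and 738 at ZT14, 777, 719 and 746 at ZT18, 720, 712 and 707 at ZT22, 753, 822 and 735 at ZT26, 636, 331 and 366 at ZT30 and 245, 235 and 259 at ZT34. KO was thus above WT up to ZT30 and below it at ZT34, where the KO mean was 0.81 times the WT mean after 4.06 times at ZT10. In edgeR's test the WT change at ZT34 was 0.78 (SE 0.11, adjusted p = 1.70e-06) and the KO change from ZT26 to ZT30 was -0.83 (SE 0.12, adjusted p = 9.08e-06). The difference in that step between genotypes was -0.93 (SE 0.17, adjusted p = 0.000664). With all 42 libraries in the edgeR fit this difference had an adjusted p of 0.0502, and that of ENSRNOG00000019504 had one of 0.066. When only the groups compared were fitted, edgeR's adjusted p for the 4 identified members was 0.0913 to 0.166 for the KO step from ZT26 to ZT30 and 0.0556 to 0.124 for its difference from WT, so none of these calls held in those fits. Without KO ZT30 replicate 1 the KO step was -1.57 for ENSRNOG00000012772, -1.23 for ENSRNOG00000034066, -1.79 for ENSRNOG00000019504 and -1.20 for ENSRNOG00000009946. Its difference from WT was then -1.70, -1.31, -1.79 and -1.30 in the same order, and each of these 8 values passed in edgeR's test.

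**Figure D3:**
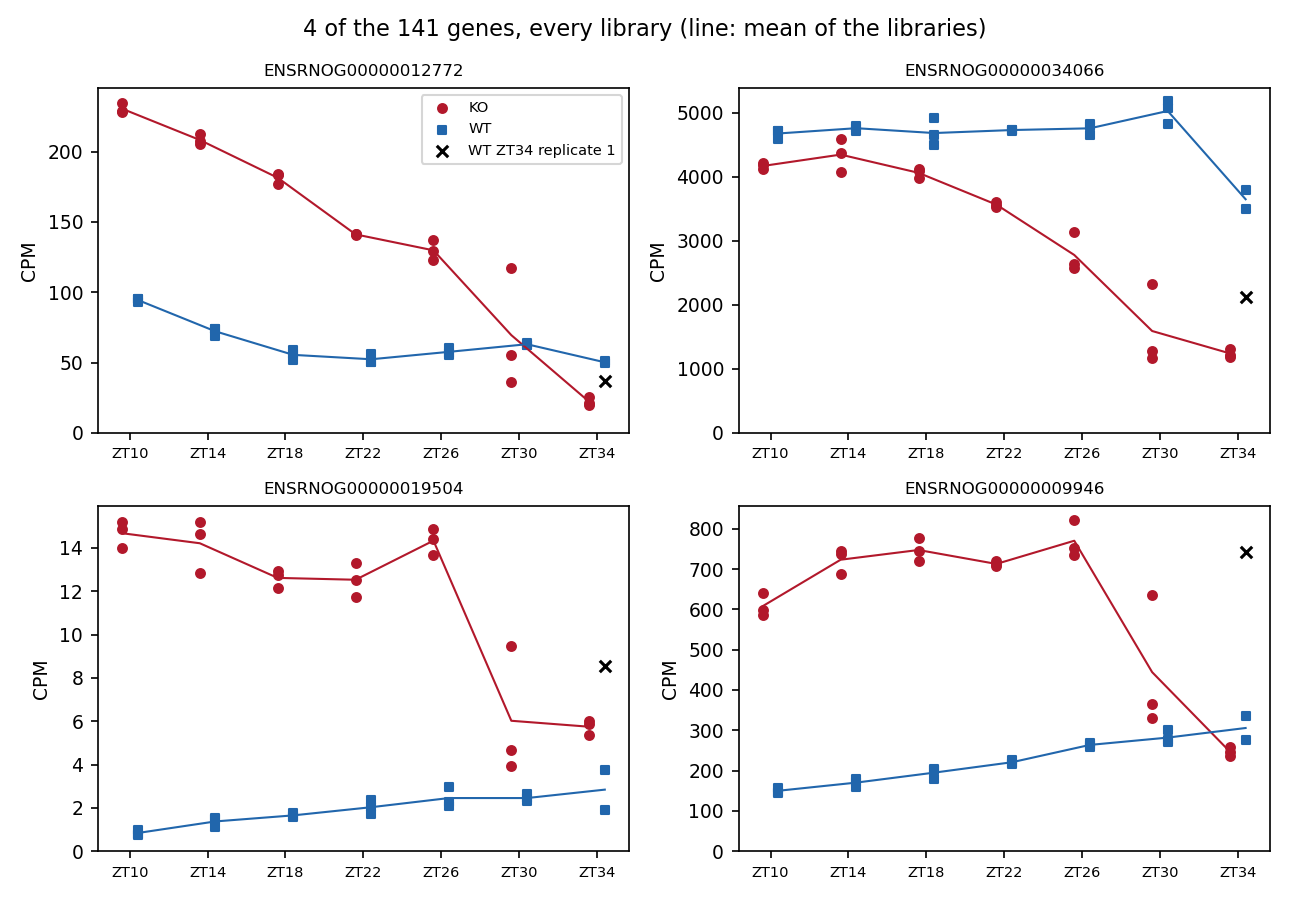
CPM of the 4 identified members in every library (y axes, each from 0 with its own scale) against hours on the ZT scale (x axes), with points for libraries, lines for group means and crosses for WT ZT34 replicate 1, which is not in the means. In KO all 4 are lower at ZT34 than at ZT22, and ENSRNOG00000009946 and ENSRNOG00000019504 rise over the course in WT.

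The late fall started from different positions relative to WT. At ZT26, before most of the fall, 81 members (57.4%) were higher in KO than in WT in edgeR's test, against 38.3% of all genes. Another 37 (26.2%) were lower, against 38.5% of all genes, and 23 were not called. The median difference was 0.42 on the log2 scale (interquartile range -0.27 to 1.5). At ZT26 the median member was still at 91.7% of its early KO mean, which the rule asks to be high relative to ZT34. The rule therefore favours members higher in KO at ZT26, and nothing is read from the contrast with all genes there. At ZT30, 50 members (35.5%) were higher, against 39.6% of all genes, and 57 (40.4%) were lower, against 38.8% of all genes, with a median of -0.12. Without KO ZT30 replicate 1, 39 members were higher and 77 lower in edgeR's test, with a median of -0.32, against 0.006 for all genes. The calls of all genes in that fit are not given here. With all libraries of ZT30, the calls moved as follows. All 50 that were higher at ZT30 came from the 81 that were higher at ZT26. Of those 81, 24 were no longer called at ZT30 and 7 were lower. Of the 37 that were lower at ZT26, 36 were lower at ZT30 too, and of the 23 not called at ZT26, 14 were lower at ZT30.

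Among the 81 members higher in KO at ZT26, the median KO to WT ratio was 2.26 at ZT10, 2.66 at ZT14, 2.55 at ZT18, 2.65 at ZT22, 2.38 at ZT26, 1.45 at ZT30 and 1.02 at ZT34. Their median level went from 65.7 CPM at ZT22 to 28.9 at ZT34 in KO and from 24.7 to 24.4 in WT, so at the last time the medians of the genotypes were close. For the 37 members that were lower in KO at ZT26, the ratio was 0.85, 0.81, 0.85, 0.79, 0.7, 0.4 and 0.34 over the same times. Their median level went from 97.1 to 41.5 CPM in KO and from 123.6 to 119.2 in WT, so these genes moved away from WT. The 23 that were not called had ratios of 1.21, 1.14, 1.1, 1.11, 1.0, 0.78 and 0.55. ZT34 and the early KO times are part of the rule, and these ratios are therefore a description.

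**Figure D4:**
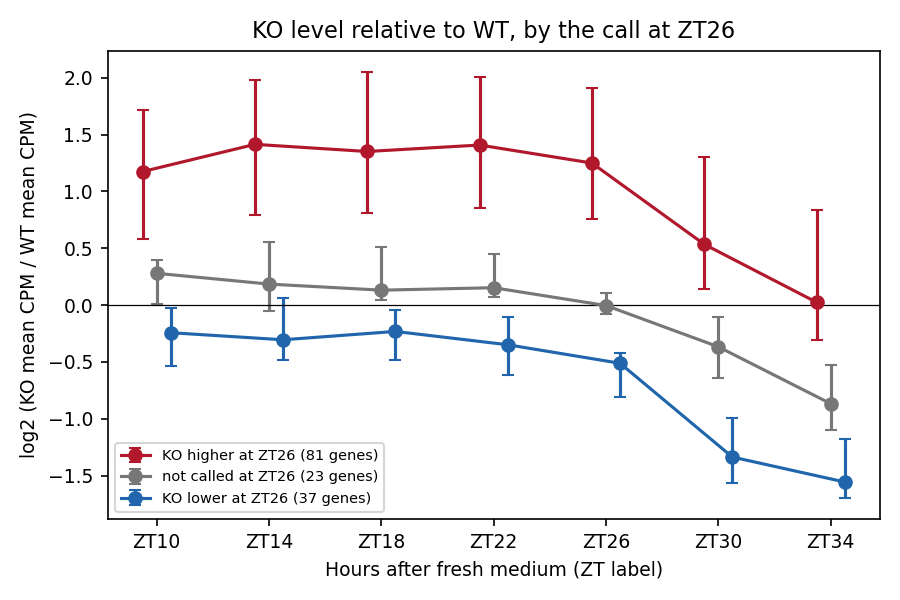
Median log2 ratio of the KO to the WT mean CPM (y axis) against hours on the ZT scale (x axis) for the 81 members higher, the 37 lower and the 23 not called in KO against WT at ZT26; bars are interquartile ranges over genes. The first line comes down to a ratio of 1.02 at ZT34, and the others end at 0.34 and 0.55.

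The fall in KO was compared between these classes. The median ratio of the early KO mean to ZT34 was 2.26 in the 81 members, 2.19 in the 37 and 2.07 in the 23. From ZT26 to ZT30 the median log2 change in KO was -0.59, -0.66 and -0.52, and 76, 36 and 17 members were called lower by edgeR. The difference of that step from WT was called in 55, 32 and 11 of them. Differences between the classes were not tested.

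The KO means of ZT22 and ZT34 were used to choose the members, so their shares at those times are a description and nothing is read from the contrast with all genes. The KO means of ZT26 and ZT30 lie between these times, and at ZT26 the median member was still near its early level. Their shares are therefore read in the same way. Set against the range of the 20 WT libraries of all times, the KO mean at ZT22 was above it in 89 members (63.1%), against 36.3% of all genes, and below it in 22 (15.6%), against 33.3% of all genes. At ZT26 these counts were 83 and 29, against 35.2 and 35.1% of all genes. At ZT30 they were 48 and 49, against 37.4 and 33.2%. At ZT34 they were 21 (14.9%) and 77 (54.6%), against 38.7 and 31.5% of all genes, with 43 within the range. Of the 81 members that were higher in KO at ZT26, 21 were still above the WT range at ZT34, 38 were within it and 22 were below it. All 37 that had been lower were below it.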

How the data were processed

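Per the labels' protocols, total RNA was sequenced as strand-specific paired reads. The values are raw counts per gene made by the authors with featureCounts, per the submitters' processing notes. The aligner, genome build, annotation and strand setting are not given in the sources used here. CPM was computed from the deposited counts without the 2 genes that dominate KO, as the rule of membership asks, so values are shares of each library. None of the 13776 identifiers matched a symbol in the RefSeq tables used here, so gene lists, markers, the targeted gene and sequences were not analysed here. The members and lists were chosen with earlier results of these data known.

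Tests used edgeR 4.0.16 (limma 3.58.1, R 4.3.3): TMM scaling, 14 groups of genotype and time, 41 libraries (WT ZT34 replicate 1 left out), quasi-likelihood tests and Benjamini-Hochberg adjustment over 13776 genes. DESeq2 1.42.0 and the settings named in the closing section were alternatives. The median log2 value of all genes lay between -0.021 and 0.052 in every comparison under TMM, the rule's totals and DESeq2's size factors.

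Genes to be named were to be those with symbols that led by size of fall, level or WT change. Without symbols, 4 identifiers are given instead, picked after their values were seen. They had the highest smallest ratio, the highest KO ZT22 level, and the 2 largest changes among members called higher in WT at ZT34.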

Additional observations from a re-analysis of the deposited data

Results flagged for a closer look

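The change from ZT26 to ZT30 differed between genotypes in 98 of the 141 members in edgeR's interaction test (adjusted p under 0.05), against 7.73% of all genes, in each case with the lower value in KO. The median of this difference over all members was -0.60 on the log2 scale. The rule favours a lower KO step, since ZT26 and ZT30 lie between ZT22 and ZT34.

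WT ZT34 replicate 1, which entered none of the tests, was over 2 times the mean of the other WT ZT34 replicates in 29 members (20.6%), against 18.2% of all genes, and under 1/2 of it in 4 (2.84%), against 6.19% of all genes. Its median member was at 104.6% of the early WT mean (interquartile range 64.5 to 168.0), and those of replicates 2 and 3 were at 92.1 and 94.0%. It lay above both other replicates in 77 members (54.6%), against 51.3% of all genes, and below both in 59 (41.8%), against 42.1%. Of the 81 members higher in KO at ZT26, 60 were above both and 20 below, with a median log2 difference of 0.59. Of the 37 members lower in KO at ZT26, 6 were above both and 30 below, with a median of -0.65. All genes of these classes were not counted in this way, so nothing particular to the members is read from it. In this library ENSRNOG00000034066 was at 2126 CPM, ENSRNOG00000012772 at 36.8, ENSRNOG00000019504 at 8.53 and ENSRNOG00000009946 at 743. The cause was not tested.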

How the results depend on the processing

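Of 199 alternatives to the 13 counts of members, 184 stayed within 1.5 times of the value given. These include counts that were 0 and stayed 0, such as members higher in KO at ZT30 than at ZT26. They also include the fit without a filter on low counts, which repeats the main fit because the filter removed 0 genes. The 184 are therefore not a measure of how firm the other counts are. With all 42 libraries, members higher in WT at ZT34 were 38 (12 of them among the 19), against 3686 of all 13776 genes, and the interaction called 56 members. In fits of only the groups compared, 0 members were lower in KO at ZT30 than at ZT26, the interaction called 31, and 4 were higher in WT at ZT30. DESeq2 called 1 member higher in WT at ZT30. Leaving out replicates gave 17 to 48 lower and 4 to 28 higher in WT at ZT34, 46 to 111 changed over the WT times, 73 to 135 lower in KO at ZT30, 0 to 2 higher in WT at ZT30 and 35 to 131 for the interaction. In a fit of only the groups compared without KO ZT30 replicate 1, chosen after seeing the data, the KO count was 134 and the interaction 129. Calls of all genes moved between fits too. With replicates left out, 405 to 2675 of all genes were lower in KO at ZT30 than at ZT26. ENSRNOG00000012772 turned from 0.10 to -0.53 in KO against WT at ZT30 both without KO replicate 1 and without KO ZT30 replicate 1, and was 0.43 without KO replicate 2. The cause was not tested.

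The samples share only a replicate number. Deviations of same-numbered KO libraries correlated at -0.164 to 0.25 (median 0.063, 18 of 63 pairs over 0.1), against a median of -0.025 and 8 of 126 for other numbers. In WT the medians were -0.021 and 0.025. With the replicate number as a block, 129 members were lower in KO at ZT30 and the interaction called 99, and no count moved beyond 1.5 times.

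The number of members depends on the rule: 412 at a threshold of 1.5, 54 at 2.2, 176 with TMM-scaled CPM (140 shared), 143 with the 2 dominant genes in the totals (139 shared), and 138 to 168 without 1 KO replicate. Of the 412, 85.9% were lower in KO at ZT30 than at ZT26, and of the 54, 92.6%.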

Other observations

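Over the 20 WT libraries, the 9870 pairs of members had a median Pearson correlation of log2 levels of 0.05, and 3.66% of pairs were at or above 0.8, against 0.02 and 0.834% for all genes at or above 5 CPM. The points share the libraries and their depth. In WT, 45.9% of the member pairs had a correlation below 0.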
